A study of Mus musculus with 28 samples.

Results

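In P19 cells after 4 days of retinoic acid, 2358 of 19164 open chromatin regions (12.3%) lay outside every peak of H3K9ac, H3K9cr and H3K18la. P19 is an established mouse embryonal carcinoma line, and H3K9ac, H3K9cr and H3K18la are acetylated lysine 9, crotonylated lysine 9 and lactylated lysine 18 of histone H3. An open region was a run of bases inside ATAC-seq peaks of both day 4 libraries, and the 2358 unmarked regions were selected on measured values, as those sharing no base with any peak of the 6 day 4 mark lists. Their day 4 ATAC and mark values are therefore described and not tested. The other 16806 open regions overlapped at least 1 mark list, and 10784 of them overlapped all 6. A region outside a list can still hold signal that the peak caller did not pass, because the files hold peaks only.

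The libraries came from cells collected at day 0 before retinoic acid, at day 2 of 1 µM retinoic acid with MS-275 or with DMSO, at day 4, and at day 8 after further culture in neuronal medium. MS-275, a class I histone deacetylase inhibitor, was given as 1 µL of a 10 mM stock at 24 h of retinoic acid, and its controls received 1 µL of DMSO at the same time. RNA-seq had 2 libraries at each of these 5 points. Native ChIP-seq had 2 libraries per mark at day 4 and 1 per mark and condition at day 2, and ATAC-seq had 2 libraries at day 4. All cells were the P19 line, so the day 4 cells model neural stem and progenitor cells of 1 tumour-derived line. Whether replicates came from separate cultures is unstated, so the p-values below measure the spread between these libraries, which may be technical.

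ATAC-seq reads DNA that the Tn5 transposase can reach, which includes active promoters and enhancers, sites held open by architectural proteins, and starts of silent genes kept accessible by CpG-rich sequence. H3K9ac and H3K9cr are known from nucleosomes beside active promoters and enhancers, and H3K18la is a lactate-derived mark also described there. At an active promoter the nucleosomes on either side carry the acylation, while the start itself is depleted of nucleosomes. CTCF, a zinc-finger protein that anchors chromatin loops with cohesin, is known to keep its sites open, often far from promoters.

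Sequence could be read for the 44 unmarked regions that overlapped a listed promoter window (250 bases before to 50 bases after a RefSeq gene start, GRCm38.p6). The 5 stretches below, of 7 found, are the bases of unmarked regions inside such a window that hold the CTCF core motif on the printed strand or its complement with at most 1 mismatch, shown because this motif stood higher in these windows than in windows with a marked open region. They run 5′ to 3′ on the gene's strand, and the capitals mark the motif match. Dgkz (minus strand, chr2:91963545-91963813) encodes diacylglycerol kinase zeta. Grpr (minus strand, chrX:163549775-163549941) encodes the gastrin-releasing peptide receptor. Cpne4 (plus strand, chr9:104569547-104569667) encodes a calcium-dependent membrane-binding copine. Slc6a19 (minus strand, chr13:73692615-73692785) encodes a neutral amino acid transporter. Glipr1l1 (plus strand, chr10:112060092-112060224) is a gene known from sperm.
Dgkz: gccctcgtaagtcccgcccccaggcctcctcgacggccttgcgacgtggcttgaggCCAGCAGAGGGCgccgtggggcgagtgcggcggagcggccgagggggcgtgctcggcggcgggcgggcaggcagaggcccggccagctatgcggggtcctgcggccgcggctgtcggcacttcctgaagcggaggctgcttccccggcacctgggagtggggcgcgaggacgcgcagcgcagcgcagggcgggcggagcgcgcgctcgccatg
Grpr: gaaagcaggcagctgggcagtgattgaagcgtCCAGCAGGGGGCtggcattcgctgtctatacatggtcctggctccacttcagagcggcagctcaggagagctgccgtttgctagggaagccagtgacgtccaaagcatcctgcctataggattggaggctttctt
Cpne4: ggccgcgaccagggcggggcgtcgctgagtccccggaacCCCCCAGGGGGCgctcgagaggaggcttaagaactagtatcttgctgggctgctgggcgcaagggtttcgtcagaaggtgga
Slc6a19: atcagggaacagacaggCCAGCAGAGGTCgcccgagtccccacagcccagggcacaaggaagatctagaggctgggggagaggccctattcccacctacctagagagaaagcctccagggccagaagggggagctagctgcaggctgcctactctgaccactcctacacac
Glipr1l1: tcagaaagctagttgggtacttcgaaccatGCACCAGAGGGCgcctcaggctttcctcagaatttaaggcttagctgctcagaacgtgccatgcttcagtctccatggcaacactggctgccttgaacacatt

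The next 4 stretches are the parts of unmarked regions inside the promoter window that hold CAGCTG, an E-box read by basic helix-loop-helix factors, in capitals. They are shown because this E-box was the more frequent of the pair searched in these windows and because 3 of the genes changed in RNA below. Jak2 (plus strand, chr19:29251602-29251852) encodes a cytokine receptor kinase. Carnmt1 (plus strand, chr19:18670584-18670808) encodes carnosine N-methyltransferase. Ankrd34b (plus strand, chr13:92425756-92426008) encodes an ankyrin-repeat protein. Bsx (plus strand, chr9:40873932-40874176) encodes a brain homeobox factor. The coordinates are those of the printed bases, and the unmarked regions of Dgkz, Jak2, Carnmt1 and Bsx ran on past the window.
Jak2: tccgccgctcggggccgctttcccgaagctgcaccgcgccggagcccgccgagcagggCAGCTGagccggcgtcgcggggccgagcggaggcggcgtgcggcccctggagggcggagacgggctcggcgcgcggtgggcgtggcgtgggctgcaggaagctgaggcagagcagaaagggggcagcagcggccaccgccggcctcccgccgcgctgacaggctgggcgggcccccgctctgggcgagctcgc
Carnmt1: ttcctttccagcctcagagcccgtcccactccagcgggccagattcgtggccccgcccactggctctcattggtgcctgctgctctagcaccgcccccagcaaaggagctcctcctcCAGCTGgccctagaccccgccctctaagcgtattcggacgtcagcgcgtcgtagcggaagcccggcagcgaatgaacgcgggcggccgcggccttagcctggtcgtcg
Ankrd34b: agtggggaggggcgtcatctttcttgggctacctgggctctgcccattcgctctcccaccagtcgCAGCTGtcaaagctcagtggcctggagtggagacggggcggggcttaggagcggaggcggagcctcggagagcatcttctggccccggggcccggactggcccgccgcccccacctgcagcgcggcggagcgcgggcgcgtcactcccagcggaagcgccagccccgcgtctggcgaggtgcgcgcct
Bsx: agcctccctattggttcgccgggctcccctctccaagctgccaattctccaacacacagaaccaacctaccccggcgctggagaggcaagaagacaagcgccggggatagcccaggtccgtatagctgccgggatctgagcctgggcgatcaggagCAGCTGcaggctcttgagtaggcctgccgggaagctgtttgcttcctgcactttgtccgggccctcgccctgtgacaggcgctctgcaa

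The unmarked regions fell into 2 arrangements around the mark peaks. In 988 of them the nearest day 4 mark peak was under 500 bases away, with a median of 61 bases, and in 1264 it was 5000 bases away or more, with a median of 54880 bases. Only 106 regions lay between these limits. Among the 988 near regions, 424 had a mark peak within 500 bases on both sides. The near peaks were mostly H3K18la: 656 of the 988 had a replicate 1 peak of it within 500 bases and 734 a replicate 2 peak. H3K9ac gave 356 and 343, and H3K9cr gave 126 and 151. H3K18la also had the most peaks of the 3 marks (54865 and 51057 in its 2 day 4 lists). Its peaks covered 52.0 and 50.8 Mb, against 53.4 and 52.7 Mb for H3K9ac and 38.8 and 41.4 Mb for H3K9cr. The part of list size in these counts was not tested. At the edge of the rule, 13 unmarked regions touched a mark peak without sharing a base with it, and 8 marked regions shared exactly 1 base with the mark peaks. Just inside the rule, chr15:34677787-34677957 had an ATAC fold enrichment of 6.33 and 5.72 in replicates 1 and 2. Just outside it, chr11:24686024-24686229 had 8.78 and 6.96.

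**Figure D1:**
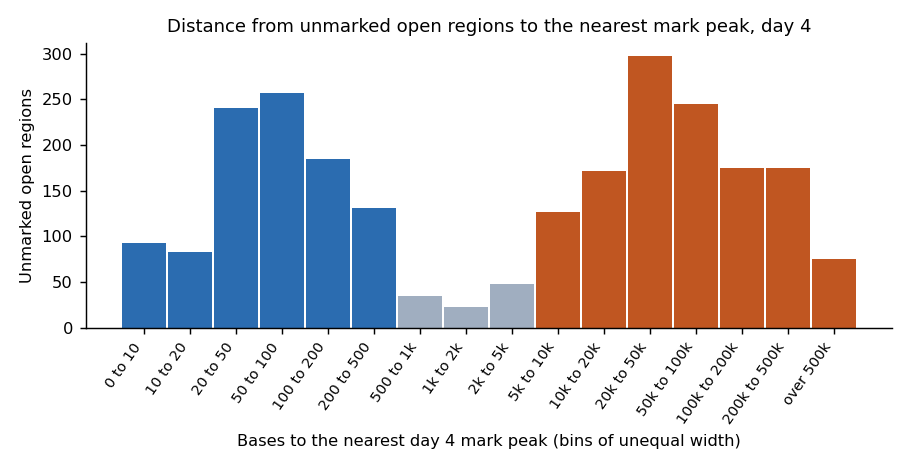
Number of unmarked open regions (vertical axis) by the number of bases to the nearest day 4 mark peak (horizontal axis, bins of unequal width). Blue bars are under 500 bases (988 regions), grey bars 500 to 5000 bases (106 regions) and orange bars 5000 bases or more (1264 regions), and the grey bins between the 2 groups are the lowest.

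Unmarked regions were narrower and lower in ATAC signal than marked ones. Their median width was 181 bases, against 354 bases for marked regions. Their median ATAC fold enrichment was 6.70 in replicate 1 and 6.47 in replicate 2, against 7.94 and 7.57 for marked regions. These folds are the authors' own values per peak. The median pileup at unmarked regions was 11 reads in replicate 1 and 10 in replicate 2, against 19 and 16 at marked regions, so a single region rests on few fragments. Another open region lay within 1 kb of 40 unmarked regions (1.70%), against 1824 marked regions (10.9%). The near and far arrangements had like ATAC values: the median folds were 6.81 and 6.53 for near regions, and 6.56 and 6.38 for far regions.

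The ATAC signal of 9 regions stood apart, with a mean fold over 25 in the 2 libraries, and 2 of those 9 lay on chromosome 18, whose gene starts were not listed in the annotation used. The highest of the others was chr9:24745088-24745251, inside Tbx20, a T-box factor of heart development, at 38.9-fold and 40.5-fold in replicates 1 and 2. It lay 25082 bases from the nearest mark peak. The region chr5:7276774-7276930, inside the zinc-finger gene Zfp804b, had 35.9-fold and 37.0-fold and lay 66948 bases from a mark peak. The region chr6:79818081-79818338 lay in the predicted gene Gm20594, 50 bases from its start, with 33.5-fold and 38.2-fold. Inside Gm36876, chr11:109011650-109012117 had 31.5-fold and 29.9-fold. All of these were high in both libraries, and none of the 9 overlapped a day 2 mark list. The region chr1:24613066-24613313, outside RefSeq genes, had the highest pileup of all unmarked regions, 477 and 420 reads, at 17.3-fold and 19.9-fold. The medians were 11 and 10 reads. The files hold peaks only, so how reads mapped at these outlying regions was not examined, and their values may not reflect open chromatin alone.

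**Figure D2:**
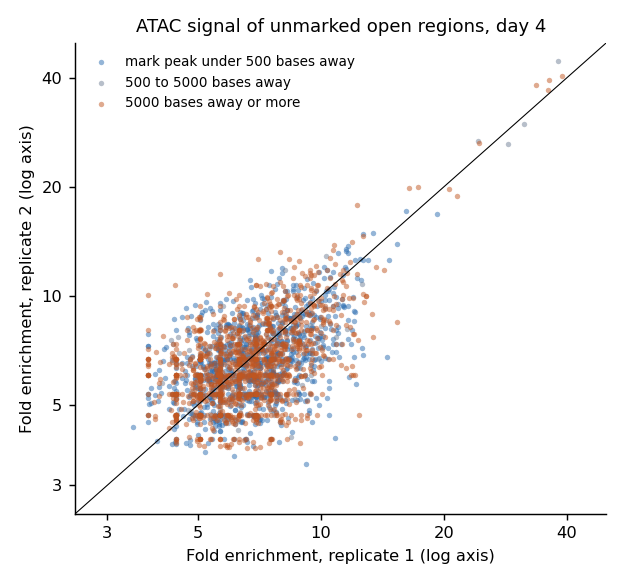
Deposited ATAC fold enrichment at day 4 in replicate 1 (horizontal, log axis) and replicate 2 (vertical, log axis) for each of the 2358 unmarked open regions, coloured by the distance to the nearest mark peak; the line is equality. The 9 regions with a mean fold over 25 lie apart at the upper right, and the near and far regions overlap over the rest of the range.

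Unmarked regions lay away from gene starts. Of the 2253 on chromosomes with listed starts, 85 (3.77%, exact 95% interval 3.02 to 4.64) were within 1 kb of a start, against 9265 of 16221 marked regions (57.1%, 56.4 to 57.9). The intervals cover counting error only, and regions of 1 library are not replicates. The median distance to a start was 56627 bases for unmarked regions and 163 bases for marked regions. Of the unmarked regions, 53.6% were outside all RefSeq genes, against 16.4% of marked regions, and 38.7% were in a protein-coding gene, against 77.6%. The share of open regions that were unmarked was highest on chromosome 3 (17.8%, 199 of 1118) and lowest among autosomes on chromosome 11 (7.43%, 108 of 1454), while no region of the 5 on chromosome Y was unmarked.

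Day 2 lists were not used to choose the regions. An MS-275 list covered at least 1 base of 353 of the 2358 unmarked regions (15.0%, exact 95% interval 13.6 to 16.5) and of 88.9% of marked regions (88.4 to 89.3). A DMSO list covered 141 (5.98%, 5.06 to 7.01) and 86.7% (86.2 to 87.2) of them. Thus 291 unmarked regions were in an MS-275 list alone, 79 in a DMSO list alone, 62 in both kinds and 1926 in neither. Each mark and condition had 1 library at day 2, so the difference between MS-275 and DMSO has no replicate check and no test.

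By mark, H3K9ac covered 317 unmarked regions with MS-275 and 63 with DMSO, and H3K9cr covered 133 and 35. H3K18la went the other way, with 17 regions under MS-275 and 104 under DMSO. The lists themselves differed in breadth in the same direction for each mark: H3K9ac peaks covered 122 Mb with MS-275 and 34.2 Mb with DMSO, H3K9cr peaks 107 Mb and 32.5 Mb, and H3K18la peaks 16.3 Mb and 26.8 Mb. How far the breadth of a list sets these counts was not tested. Among marked regions, H3K9ac covered 87.8% with MS-275 and 82.8% with DMSO, and H3K18la 14.2% and 68.5%. In the authors' fold enrichment, day 2 H3K9ac peaks over unmarked regions were lower than those over marked regions. Their medians were 5.02 with MS-275 and 6.02 with DMSO, against 12.9 and 35.8. The whole H3K9ac lists had medians of 4.73 and 13.8, so the MS-275 peaks there were typical of their list. For H3K18la the medians were 4.14 and 5.41 over unmarked regions, 4.39 and 7.31 over marked regions, and 4.07 and 5.14 in the whole lists.

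At day 2, near regions were closer to mark peaks than far regions in each list, by counts that carry no test. The nearest day 2 peak was within 500 bases for 38.8% of near regions and 26.0% of far regions in the H3K9ac MS-275 list, and for 14.4% and 1.58% in the H3K9ac DMSO list. For H3K18la these shares were 10.7% and 2.93% with MS-275 and 22.4% and 5.14% with DMSO. A day 2 list overlapped the region itself less often: 74.8% of near regions (739 of 988) and 87.6% of far regions (1107 of 1264) were in no day 2 list. These are counts of regions within single libraries.

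**Figure D3:**
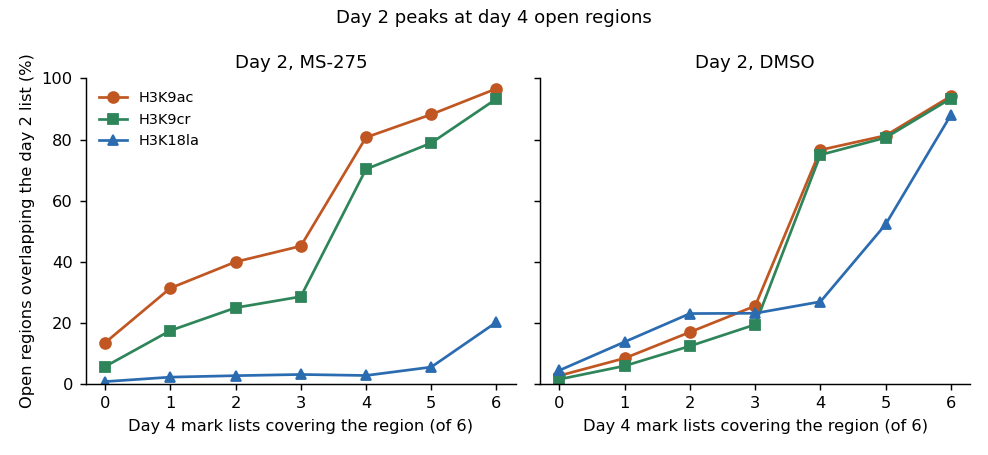
Percent of day 4 open regions that overlap a day 2 peak list (vertical axis), for regions in 0 to 6 of the day 4 mark lists (horizontal axis), with MS-275 (left) and DMSO (right); each line is 1 mark and each point 1 library. The unmarked regions, at 0, are lowest for every list, at 13.4% for H3K9ac with MS-275 and 2.67% for H3K9ac with DMSO.

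Open regions in only 1 of the 6 day 4 lists (597 regions) lay between the unmarked regions and the rest at day 2. A day 2 MS-275 list covered 34.5% of them and a DMSO list 18.6%, against 15.0% and 5.98% of unmarked regions and 96.9% and 96.3% of the 10784 regions in all 6 lists. Their median width, 197 bases, was also close to the 181 bases of unmarked regions, and regions in all 6 lists had a median of 416 bases.

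Peaks of all 3 marks at day 2 shared at least 1 base with a few unmarked regions. In all, 9 overlapped the 3 DMSO lists together, and the highest of them in ATAC signal was chr15:24567038-24567343, outside RefSeq genes and 31 bases from a day 4 mark peak, at 9.58-fold and 10.8-fold, which no MS-275 list covered. Likewise, 9 overlapped the 3 MS-275 lists together. Of those in no DMSO list, the highest was chr11:102040125-102040391, 7 bases from a day 4 mark peak, at 10.2-fold and 6.75-fold. Of its 267 bases, 30 were in the H3K9ac list, 3 in the H3K9cr list and 22 in the H3K18la list, so most of its bases were in none of them.

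At gene starts, 75 of the 27025 genes with a listed start had an unmarked region and no marked open region within 1 kb, 14 had both kinds, and 10147 had a marked open region alone. For 45 of the 75 the unmarked region was near a mark peak, and for 24 it was far from one. Among the near starts was Prkaca, which encodes the catalytic subunit of protein kinase A. Its region chr8:83972633-83973080 filled the whole 300-base window and the nearest mark peak was 52 bases away. At Gna12, a G-protein subunit, the gap was 4 bases, and at Spen, a corepressor, 98 bases. At 25 of the 45 near starts a mark peak lay within 500 bases on both sides, and at 14 every one of the 6 lists had a peak within 500 bases. The far starts included Mc3r, a melanocortin receptor (20647 bases), Slc6a19 (39917 bases), Glipr1l1 (78575 bases) and Grpr (172587 bases).

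The promoter windows with an unmarked region were GC-rich as a group and split by arrangement. The median GC content of the 47 windows was 65.3%, against 62.7% for the 10277 windows with a marked open region and 52.7% for all 32851 windows. The 34 windows near a mark peak had a median of 70.5% GC and 31.5 CpG, and the 11 far windows 49.7% GC and 6 CpG. Bsx and Gm28455 had the 2 windows in between.

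On both strands 22 motifs were searched, and those described here were picked after their values were seen and carry no test. The CTCF core, an ambiguous-letter consensus, matched with at most 1 mismatch in 8 of 47 unmarked windows (17.0%), against 623 of 10277 marked windows (6.06%), and exactly in 3 (6.38%) against 93 (0.905%). Of these 8 matches, 7 lay inside the unmarked region itself. Of the 8, 5 were in the 11 far windows and 3 in the 34 near windows. Among windows under 60% GC the motif was in 7 of 22 unmarked windows (31.8%) and 190 of 3731 marked windows (5.09%). Among windows of 60% GC or more it was in 1 of 25 (4.0%) and 433 of 6546 (6.61%). Of all windows, 4.3% held it.

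CAGCTG was in 17 of the 47 unmarked windows (36.2%), against 14.5% of marked windows and 16.3% of all windows, and in 10 of the 17 it lay inside the unmarked region. The 47 windows came from 44 regions, and overlapping windows were counted separately. Those of Klf4 and Gm12506 overlap at the same region, and both held CAGCTG. The shares were alike on either side of 60% GC, at 36.0% and 36.4% for unmarked windows, against 14.9% and 13.6% for marked windows. The Sp and Klf box GGGCGG was in 59.6% of unmarked windows and 71.0% of marked windows, but the order turned with GC content. It was in 96.0% (24 of 25) and 83.5% of windows of 60% GC or more, and in 18.2% (4 of 22) and 49.2% of windows under 60% GC. The Ets motif CCGGAAG was in 8.51% of unmarked, 20.1% of marked and 8.86% of all windows. The YY1 motif was in no unmarked window, 5.13% of marked windows and 2.75% of all windows. Neither was split by GC content. A match describes letters in a window and shows no binding.

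**Figure D4:**
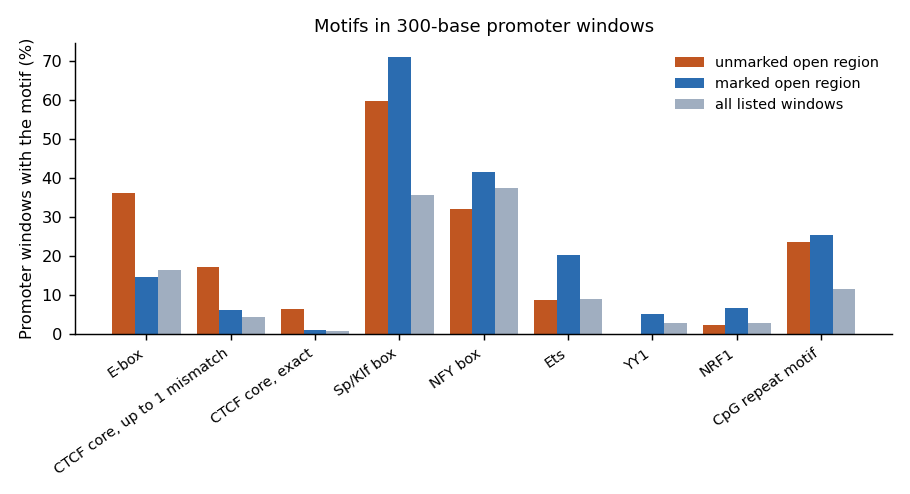
Percent of 300-base promoter windows holding a motif on either strand (vertical axis) for windows with an unmarked open region (orange, 47 windows), with a marked open region (blue, 10277 windows) and for all listed windows (grey, 32851 windows). The E-box (36.2% against 14.5%) and the CTCF core with up to 1 mismatch (17.0% against 6.06%) stand higher in the unmarked windows than in the marked ones, while the Ets motif stands lower. The Sp/Klf motif stands lower over all windows (59.6% against 71.0%) but higher among windows of 60% GC or more (96.0% against 83.5%).

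Unmarked regions also overlapped 2 microRNA hairpins. The region chr13:113036000-113036157 covered 92 of the 109 bases of the Mir449c hairpin, 621 bases from the start of Cdc20b, with 7.1-fold ATAC enrichment in each library, and lay 76 bases from a mark peak. The region chr7:61982332-61982512 covered 28 of the 71 bases of the Mir344g hairpin, with 5.67-fold and 5.88-fold, and lay 42 bases from a mark peak. miR-449c belongs to a family known in multiciliated cells. The mature 5p sequences are shown with the seed (bases 2 to 8) in capitals, since both 5p arms lie wholly inside the regions. The miR-449c-5p seed was shared by 4 mature mouse sequences and the miR-344g-5p seed by 7. Mature microRNA levels were not analysed here.
miR-449c-5p: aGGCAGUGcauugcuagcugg
miR-344g-5p: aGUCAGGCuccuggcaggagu

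The rule that chose the regions used no RNA values. The libraries held 18115926 to 19586374 estimated counts. Between day 4 and day 0 the marker genes went with the labels. Pou5f1, a pluripotency factor, averaged 2.65 CPM (counts scaled to library size) at day 4 and 1418 CPM at day 0, and the progenitor factor Sox1 averaged 81.7 CPM at day 4 and 1.78 CPM at day 0. Fibroblast genes were also higher at day 4 (11 of 12 tested, with Col3a1 at 466 CPM against 2.30 CPM at day 0), and their part in the results below was not tested. In bulk RNA, fewer cells of a type and less RNA per cell cannot be told apart.

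Whether a start lay near or far from a mark peak went with its RNA. Of the 37 near genes in the RNA table, 28 passed the filter on low counts and the median level at day 4 was 6.94 CPM. At day 4, 20 of these 37 reached 1 CPM and 9 had no count. Of the 13 far genes, 1 passed, 8 had no count at day 4, and the highest was Lsmem1 at 0.162 CPM. Genes with a marked open start had a median of 33.1 CPM, and 89.3% of those 9314 reached 1 CPM. CPM does not correct for gene length. The most abundant near genes were Spen (237 CPM), Tmeff1 (169 CPM), Dgkz (129 CPM) and Gna12 (120 CPM).

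Of the 75 genes with an unmarked start, 54 were in the RNA table and 31 were tested, so the counts below cover those 31 and not all 75. At day 4 against day 0, 22 of 31 changed (71.0%) by edgeR's quasi-likelihood test at a Benjamini-Hochberg adjusted p under 0.05, against 72.3% of all 17789 genes tested. Of these, 14 were higher and 8 lower at day 4, against 36.2% higher and 36.1% lower among all genes. At day 8 against day 4, 18 of 31 changed (58.1%, background 41.5%), 14 higher and 4 lower, against 21.7% and 19.8% of all genes, and the count was 12 without day 4 replicate 2. Without that library 34 genes were tested, and no background share was computed, so the excess over 41.5% is not secured. Marker lists moved in the comparison of day 8 with day 4: 14 of 21 pluripotency genes were higher and 4 lower at day 8 (median log2 fold change 2.77), with Pou5f1 at 41.8 CPM at day 8 against 2.65 CPM at day 4. Of the progenitor list, 7 of 32 genes were higher and 18 lower at day 8, and of the astrocyte and oligodendrocyte list 8 of 13 were higher and 1 lower. Their part in the result was not tested. With MS-275 against DMSO, 19 of 31 changed (61.3%, background 63.3%), 13 higher and 6 lower, against 31.9% and 31.4% of all genes. In that comparison 14 of 21 pluripotency genes were higher and 6 lower, and 11 of 32 progenitor genes were higher and 18 lower, and their part was not tested either. The median log2 fold change of the 31 was 0.24, 0.39 and 0.30 in these comparisons, beside 0.01, 0.00 and 0.01 for all genes tested. The first 2 comparisons share the day 4 libraries.

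Metrn (ENSMUSG00000002274.13), which encodes the secreted neurotrophic factor meteorin, had 71.4 and 76.2 CPM at day 4, against 13.98 and 16.8 CPM at day 0. The groups did not overlap, and the log2 fold change was 2.26 ± 0.08 (SE, adjusted p = 2.46e-13, edgeR). With MS-275 it had 86.2 and 82.2 CPM, against 300.2 and 283.9 CPM with DMSO, a log2 fold change of -1.79 ± 0.07 (adjusted p = 2.38e-12, edgeR). Its unmarked region, 20 bases from a mark peak at day 4, was in 2 MS-275 and 2 DMSO lists at day 2. Jak2 (ENSMUSG00000024789.13) had 39.0 and 38.3 CPM at day 4, against 11.1 and 12.3 CPM at day 0, so both day 4 libraries were higher (log2 fold change 1.72 ± 0.09, adjusted p = 1.13e-11, edgeR). Its unmarked region lay 75 bases from a mark peak.

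Dkk2 (ENSMUSG00000028031.6), a Wnt antagonist family member, had 4.88 and 5.05 CPM at day 4, against 0.0525 and 0.0 CPM at day 0. It rested on 184 counts at day 4 and 1 count at day 0, and its adjusted p was 5.74e-09 (edgeR). Zfp746, which encodes a repressor zinc-finger protein, had 43.9 and 45.9 CPM at day 4, against 19.9 and 21.8 CPM at day 0 (log2 fold change 1.11 ± 0.09). Among genes averaging at least 2 CPM over both groups, 3 fell by 2-fold or more. Orai3, a subunit of store-operated calcium channels, had 6.77 and 7.11 CPM at day 4, against 49.8 and 50.4 CPM at day 0 (log2 fold change -2.85 ± 0.10). Tcf7, a Wnt-responsive transcription factor, had 21.9 and 23.7 CPM at day 4, against 102.0 and 94.9 CPM at day 0 (log2 fold change -2.11 ± 0.08). Carnmt1 had 12.9 and 14.3 CPM at day 4, against 28.3 and 28.4 CPM at day 0 (log2 fold change -1.06 ± 0.10). None of these groups overlapped, and all 4 tests had adjusted p of 6.94e-08 or less by edgeR. The unmarked regions of these genes all lay beside day 4 mark peaks. That of Dkk2 touched a mark peak and lay 988 bases from the start. The nearest mark peak was 25 bases away at Zfp746, 5 at Tcf7 and 11 at Carnmt1. At Orai3 it was 17 bases away, and the region lay 682 bases from the start.

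Nkx6-1 and Nkx6-2, homeobox factors of ventral neural progenitors, were the 2 genes of the 32 in the neural stem and progenitor list with an unmarked start. Nkx6-1 had 6.56 and 6.67 CPM at day 8, against 0.682 and 1.11 CPM at day 4, so it rose further after the stage at which its region was open without a mark peak (log2 fold change 2.88 ± 0.32, adjusted p = 1.88e-06, edgeR). At day 0 it had 0.158 and 0.28 CPM, so it was already higher at day 4 (log2 fold change 2.01, adjusted p = 0.0019, edgeR). Its region chr5:101665342-101665538 lay 631 bases from the start and 16 bases from a mark peak, with 5 of the 6 lists having a peak within 500 bases, and it was in no day 2 list. Nkx6-2 had 0.315 and 0.389 CPM at day 4, against 2.995 and 2.636 CPM at day 0 (log2 fold change -2.98 ± 0.44, adjusted p = 1.19e-05, edgeR). Its region chr7:139582508-139582718 was in 2 MS-275 and 2 DMSO lists at day 2. With MS-275 Nkx6-2 had 1.04 and 1.29 CPM, against 0.314 and 0.512 CPM with DMSO (adjusted p = 0.00959, edgeR), and this call was lost without MS-275 replicate 2 (adjusted p = 0.0634) or DMSO replicate 1 (adjusted p = 0.0912).

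Map7d2, a microtubule-associated protein gene, had 56.2 and 55.05 CPM with MS-275, against 13.2 and 13.6 CPM with DMSO, the groups lying far apart (log2 fold change 2.05 ± 0.09, adjusted p = 1.73e-11, edgeR). It also rose at day 8, to 29.6 and 30.4 CPM, against 16.0 and 13.2 CPM at day 4 (log2 fold change 1.04 ± 0.09, adjusted p = 1.63e-07, edgeR). Ankrd34b had 5.65 and 5.52 CPM with MS-275, against 0.89 and 0.512 CPM with DMSO (log2 fold change 2.97 ± 0.39, adjusted p = 4.87e-06, edgeR). At day 4 it averaged 0.187 CPM, against 1.86 CPM at day 0 (adjusted p = 3.83e-05, edgeR). Its region was in 1 list of each condition at day 2. The nearest day 4 mark peak was 11 bases from this region and 48 bases from that of Map7d2. Cpne4, whose start holds a CTCF core match, had 1.98 and 2.04 CPM with MS-275, against 0.105 and 0.512 CPM with DMSO (adjusted p = 2.02e-04, edgeR), and was named after its values were seen, since its mean was under the 2 CPM of the rule for named genes.

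**Figure D5:**
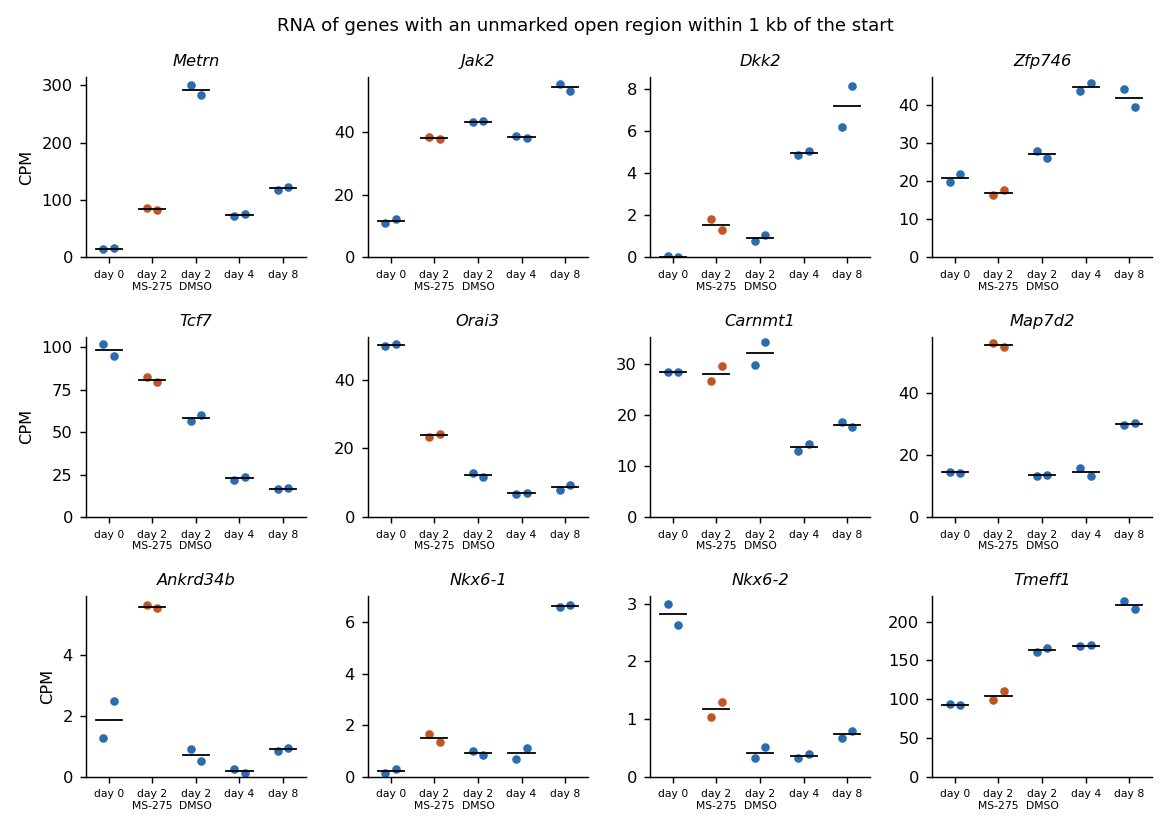
RNA level in CPM (vertical axes, each from 0) in every library of 12 genes with an unmarked open region within 1 kb of the start, by collection point (horizontal axes); points are libraries, bars are means of 2, and MS-275 libraries are orange. Metrn, Jak2 and Dkk2 are higher at day 4 than at day 0, Tcf7 and Orai3 lower, Nkx6-1 is highest at day 8, and Map7d2 and Ankrd34b are highest with MS-275.

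Inside gene bodies, 769 protein-coding genes held an unmarked region and 198 of them held no marked open region. These genes were long, with a median length of 163 kb, against 17.2 kb for all protein-coding genes. The gene Nkain3, whose product binds the sodium pump, held 6 unmarked regions, and Dcdc5, Galntl6, Lsamp and Nkain2 were among those that held 5 each. Lsamp encodes a neuronal adhesion protein, and Cntnap2 and Nrxn3, with 4 each, encode synaptic and axonal neurexin-family proteins. Cntnap2 averaged 59.4 CPM at day 4 and 2.91 CPM at day 0, Nrxn3 45.1 and 1.85 CPM, Lsamp 20.6 and 1.87 CPM, and Nkain3 12.5 and 0.240 CPM. These 4 passed the test as higher at day 4 (adjusted p of 3.93e-11 or less, edgeR), and so did Nkain2, Negr1 and Dpyd. They were picked after their values were seen, and other genes with 4 or 5 unmarked regions did not rise. Cobl fell to 1.67 CPM at day 4, against 10.8 CPM at day 0 (adjusted p = 3.92e-07, edgeR). Galntl6 averaged 0.406 CPM at day 4 and 0.578 CPM at day 0, and Ryr3 3.14 and 2.79 CPM, neither passing the test. Dcdc5 was too low to be tested.

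Of the 671 genes with an unmarked region in the body that were tested, 52.9% were higher and 28.8% lower at day 4 against day 0, beside 36.2% and 36.1% of all genes tested. Of the 121 tested genes whose bodies held only unmarked open regions, 34.7% were higher and 33.9% lower, close to all genes. The 198 genes of this kind had a median length of 57.4 kb, against 163 kb for all 769. More of the 121 were higher at day 8 against day 4 (37.2%, beside 21.7% of all genes). With MS-275 against DMSO, 50.4% of them were higher, beside 31.9% of all genes. Length went with the share of genes higher at day 4. Among tested protein-coding genes of 200 kb or more, 208 of 311 with an unmarked region (66.9%) were higher at day 4, against 354 of 611 without one (57.9%). Among genes under 50 kb the shares were 35.8% (43 of 120) and 33.4%. At day 8 against day 4, genes of 200 kb or more were higher in 58.5% of cases with an unmarked region and 48.8% without one. With MS-275 against DMSO the order was the reverse in the longest genes, 39.5% against 43.0%, and under 50 kb it was 46.7% (56 of 120) against 33.6%. Genes without an unmarked region included both those with marked open regions and those with no open region, which were not separated. No test was made of these differences.

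Of the 18 gene lists, 12 had a gene with an unmarked region in its body or within 10 kb. The neural stem and progenitor list had 3 of 32 such genes and 23 of 32 with a marked open region, and the neuron list 3 of 30 and 19 of 30. No gene of the Hox, germline, fibroblast, ribosomal protein, or cohesin and CTCF lists had an unmarked region. Of the 12 cohesin and CTCF genes 11 had a marked open region, and so did all 32 ribosomal protein genes. Among all 21887 protein-coding genes, 769 held an unmarked region in the body, and the share within 10 kb was not computed. The lists are short, so these counts do not set a list apart from all genes.

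Neurod4, a proneural factor, had its unmarked region at chr10:130282036-130282440, 108 bases from a mark peak. Its RNA was 40.5 and 35.7 CPM at day 4, against 0.42 and 0.785 CPM at day 0, with no overlap (log2 fold change 5.98 ± 0.20, adjusted p = 7.07e-14, edgeR). Rarb, the retinoic acid receptor beta gene and a direct retinoic acid target, had 3 unmarked regions at 91, 760 and 13240 bases from a mark peak, beside a marked open start. Rarb had 138.7 and 141.8 CPM at day 4, against 1.58 and 0.897 CPM at day 0 (log2 fold change 6.81 ± 0.15, adjusted p = 4.81e-16, edgeR), and 25.6 and 32.6 CPM with MS-275, against 77.1 and 77.3 CPM with DMSO (adjusted p = 2.85e-09, edgeR). Tfap2b, a neural crest factor, had 1 unmarked region, 441 bases from a mark peak, and averaged 102.1 CPM at day 4 and 0.0525 CPM at day 0.

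Regions also lay at genes of other lineages, some of them low in these cells. Foxa2, an endoderm and floor plate factor, averaged 0.0525 CPM at day 4, and its region chr2:148048508-148048885 was in 2 MS-275 and 2 DMSO lists at day 2. It averaged 1.76 CPM at day 8 and was called higher there (adjusted p = 1.28e-04, edgeR). Gata4, an endoderm and heart factor, averaged 0.0525 CPM and Tbx20 0.244 CPM at day 4. Jarid2, a Polycomb cofactor, had 1 unmarked region, in 2 MS-275 lists and no DMSO list. It lay 27 bases from a day 4 mark peak, and Jarid2 also had a marked open start and 4 marked open regions. Jarid2 averaged 327.7 CPM with MS-275 and 220.1 CPM with DMSO (log2 fold change 0.57 ± 0.05, adjusted p = 4.80e-08, edgeR). In that comparison 31.9% of all genes were higher. These links are by position only.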

How the data were processed

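Per the submitters' processing notes, Bowtie2 2.4.1, MACS2 2.2.7.1, Salmon 1.1.0, DESeq2 1.26.0 and GRCm38 were used, with no role stated. The authors deposited 14 peak lists, called per library, giving each peak's pileup signal, fold ratio and −log10 p and q. They also deposited estimated counts per gene for 10 RNA libraries, which were rounded to whole numbers. The 4 inputs were not used here. The members and gene lists were chosen with earlier results of these data known.

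Regions were compared by shared bases (Python 3.11.15, pandas 2.3.3), with exact Clopper-Pearson 95% intervals that cover counting error only. Gene starts, promoter sequence and microRNAs came from RefSeq GRCm38.p6. RNA was tested with edgeR 4.0.16 (TMM, filterByExpr, quasi-likelihood, all 10 libraries, Benjamini-Hochberg over 17789 genes). The test was checked on simulated data. CPM were computed from the counts.

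Genes with an unmarked start were named, up to 6 in each direction, where called, changed 2-fold or more, averaging 2 CPM or more, and not overlapping, or as fixed-list genes. A planned choice by level per kb was not made, since no transcript lengths were used. Regions were named by highest mean ATAC fold among all regions, at starts and by day 2 lists. The CTCF motif was searched in promoter windows instead of at region centres, because no genome sequence was used. Alternatives were other tools, scalings, filters, windows, peak cut-offs and leaving out each library.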

Additional observations from a re-analysis of the deposited data

How the results depend on the processing

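The number of unmarked regions was 1419 with ATAC peaks at −log10 q of at least 5, 1335 with no mark peak within 1 kb, and 2374 to 6338 when 1 library was left out, the highest with ATAC replicate 1 alone and 4639 with replicate 2 alone. Regions at gene starts numbered 128 within 2.5 kb, 48 at the stricter ATAC cut, 27 with no mark peak within 1 kb, 151 when only bases in both replicates of a mark removed a region, and 87 to 154 leaving out 1 library (148 with ATAC replicate 2 alone). Regions with the CTCF core numbered 3 for the exact motif, 5 with no mark peak within 1 kb, 13 under the both-replicate rule and 8 to 14 leaving out 1 library. Regions in a DMSO list numbered 69 at 50% coverage, 76 at the stricter ATAC cut, 41 with no mark peak within 1 kb, 324 under the both-replicate rule and 145 to 323 leaving out 1 library (237 with ATAC replicate 2 alone). Regions in an MS-275 list numbered 231, 217, 155 and 667 under those settings in that order, and 361 to 1156 leaving out 1 library (805 with ATAC replicate 2 alone). These settings change which regions are counted, and the cause of the shifts was not tested beyond that.

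Within 2.5 kb of a start, 30 of 46 genes were called with MS-275 (65.2%, beside 63.3% of all genes tested). Leaving out 1 library gave 19 to 21 calls at day 4 against day 0, 12 to 16 at day 8 against day 4, and 17 to 20 with MS-275. Those fits left 1 library in a group and tested 32 to 34 genes in place of 31. The share called over all genes was not computed for them, so these counts have no background. The replicate block gave 21, 17 and 19 calls in the same order of comparisons, and the numbers showed no pairing (correlations of deviations -0.03, 0.001 and 0.09). Of the single genes, the Nkx6-2 call with MS-275 was lost in 2 settings (log2 1.32 and 1.17). The other 151 gene and setting pairs kept direction and stayed called or uncalled as in the main test, and none reversed. Nkx6-1 with MS-275 and Nkx6-2 at day 8 against day 4 were not called in the main test (adjusted p = 0.108 for each, edgeR) or in any other setting. The CTCF search around region centres and summits was not run. Median pileups near 10 limit what single regions show, and each day 2 condition has 1 library.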
